A study of Mus musculus with 30 samples.

Results

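In mouse natural killer (NK) cells at rest, 972 of the 38526 accessible sites of the chromatin atlas lay lower after treatment with prostaglandin E2 (PGE2), and these sites are described here. They were chosen from the measured values. For each site the mean of log2(normalised read count + 1) in wild-type (WT) cells given PGE2 without stimulation was compared with that in untreated, unstimulated WT cells. A site was taken where that difference was -0.5 or lower and the mean normalised count in untreated cells was at least 50. The choice used 7 libraries, so the values of those libraries are given as a description with no test. The sites made up 3.06% of the 31816 sites at that level, and carried 821 gene names. Positions are those of the mouse build mm10. A further 294 sites had the same difference below that level and were not taken.

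The study compared 8 groups of cultured splenic NK cells in 30 libraries of ATAC-seq, an assay in which a transposase tags open DNA. NK cells came from C57BL/6J mice (WT) or from GzmbCrePtger2-/-Ptger4fl/fl mice (EP2/EP4-deficient, here KO), which lack the PGE2 receptors EP2 and EP4. All were kept for 5 days in culture with IL-2 and IL15:IL15Ra at low doses, and IL-2 was present during every treatment. Both genotypes were studied with no PGE2 or with 100 ng/ml of it. The treatment ran for 5 h in cells left at rest, or began 1 h before a stimulation of 4 h with an antibody to the activating receptor NK1.1. Cells given conditioned medium, which the study's design also names, were not analysed here. Each group held 4 libraries, except WT with PGE2 at rest and untreated KO at rest, which held 3. In the KO, Ptger2 is deleted in all cells while Ptger4 is removed by a Cre under the granzyme B promoter, so its loss depends on cells having used that promoter. WT mice carried no Cre, and receptor loss and Cre cannot be told apart. The age of the mice, and whether replicates came from separate mice, are not given in the sources used here, so p-values measure only the spread between these libraries, which may be technical.

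PGE2 is a lipid mediator made by many inflamed tissues and tumours. Its receptors EP2 and EP4 couple to the G protein Gs and raise cyclic AMP, which activates protein kinase A and restrains signalling from activating receptors in lymphocytes. NK1.1 is such an activating receptor, and its engagement opens chromatin at effector genes such as those of chemokines and cytokines. A site that transposase reaches less often holds fewer open copies across the culture. In bulk cultures, fewer cells with an open site and less opening per cell cannot be told apart.

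Each library held 8444350 to 20153816 reads in sites. The targeted genes separated the genotypes: the Ptger2 promoter site ranged from 559.8 to 1109 normalised counts in the 15 WT libraries and from 83.6 to 247 in the 15 KO libraries, and the Ptger4 exon site from 433.5 to 685 and from 56.2 to 152. All 12 NK marker genes on the list had sites. Of the marker genes of other cells, 5 of 11 of B cells, 6 of 14 of T cells, 10 of 15 of myeloid cells and 3 of 9 of erythroid cells had sites, 12, 21, 16 and 4 in number. No site was assigned to Cd79a, Cd79b or Ms4a1 of B cells, to Cd3g, Cd4, Cd8a or Trac of T cells, or to Lyz2, S100a8 or S100a9 of myeloid cells. Sites were assigned to Blk, Cd22, Ebf1, Fcrla and Pax5 of B cells and to Cd14, Csf1r and Spi1, among others, of myeloid cells. Of the T cell list, Bcl11b, Cd28, Cd3d, Cd3e, Cd5 and Cd6 had sites. Summed counts in untreated resting WT libraries were 1425 to 1557 for B cell and 6015 to 6656 for T cell sites. Those of myeloid sites were 3942 to 4430 and of erythroid sites 706 to 802. All 13 marker genes of type 2 and type 3 innate lymphoid cells had sites, and the summed count of their 48 sites ranged from 8902 to 9720 in untreated resting WT libraries and from 11181 to 11451 with PGE2. In stimulated WT libraries it ranged from 9187 to 9888 without and from 10492 to 12430 with PGE2, again with no overlap. The summed count of the 73 NK marker sites ranged from 35622 to 39667 in untreated resting WT libraries and from 32852 to 36528 with PGE2, and from 35576 to 40866 and from 32876 to 38582 with stimulation, which overlap in both states. The part of these shifts in the results was not tested.

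Most of the sites lie away from promoters, where the tables used here give no sequence. For those at promoters, 64 windows around a transcription start lay whole inside 55 of the sites (RefSeq, GRCm38.p6, the build of mm10). Shown are 6 of them, chosen with their values known, from the chemokine genes Ccl3 and Ccl9, the NK receptor genes Klra1, Klrb1a and Ncr1, and Tnip1, which encodes a binding partner of the NF-kB regulator A20. Each runs 5′ to 3′ along the gene's strand, and capitals mark matches on either strand to the letters of AP-1 (TGANTCA), ETS (GGAAGTG), RUNX (TGTGGTT), T-box (AGGTGTGA), NFAT (TGGAAAA), STAT (TTCNNNGAA), NF-kB (GGGANTTCC) or the cyclic AMP response element CRE (TGACGTCA).
Ccl3 (chr11:83649329-83649628, minus strand): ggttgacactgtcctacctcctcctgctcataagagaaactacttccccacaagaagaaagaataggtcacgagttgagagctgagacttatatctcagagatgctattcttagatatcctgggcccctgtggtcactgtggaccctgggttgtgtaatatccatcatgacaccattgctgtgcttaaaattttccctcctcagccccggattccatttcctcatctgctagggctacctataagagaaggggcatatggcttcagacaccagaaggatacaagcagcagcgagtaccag
Ccl9 (chr11:83578587-83578886, minus strand): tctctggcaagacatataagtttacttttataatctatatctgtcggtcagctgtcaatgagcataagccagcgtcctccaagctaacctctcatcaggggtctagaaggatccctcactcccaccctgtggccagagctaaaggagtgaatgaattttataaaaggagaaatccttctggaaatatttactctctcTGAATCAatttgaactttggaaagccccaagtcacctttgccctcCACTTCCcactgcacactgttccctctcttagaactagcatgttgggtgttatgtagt
Klra1 (chr6:130386825-130387124, minus strand): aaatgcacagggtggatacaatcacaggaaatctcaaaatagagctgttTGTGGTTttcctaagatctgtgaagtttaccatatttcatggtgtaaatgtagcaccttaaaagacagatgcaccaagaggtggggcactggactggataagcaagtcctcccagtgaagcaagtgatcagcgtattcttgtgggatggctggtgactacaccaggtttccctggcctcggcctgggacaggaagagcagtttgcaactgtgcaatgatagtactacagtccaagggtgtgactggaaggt
Klrb1a (chr6:128622885-128623184, minus strand): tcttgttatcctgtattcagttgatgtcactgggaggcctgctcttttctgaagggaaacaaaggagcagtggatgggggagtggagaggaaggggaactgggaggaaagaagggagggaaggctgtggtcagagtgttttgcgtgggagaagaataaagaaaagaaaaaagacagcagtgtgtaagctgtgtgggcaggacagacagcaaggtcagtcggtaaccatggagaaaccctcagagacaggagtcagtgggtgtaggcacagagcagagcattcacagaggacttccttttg
Ncr1 (chr7:4337465-4337764, plus strand): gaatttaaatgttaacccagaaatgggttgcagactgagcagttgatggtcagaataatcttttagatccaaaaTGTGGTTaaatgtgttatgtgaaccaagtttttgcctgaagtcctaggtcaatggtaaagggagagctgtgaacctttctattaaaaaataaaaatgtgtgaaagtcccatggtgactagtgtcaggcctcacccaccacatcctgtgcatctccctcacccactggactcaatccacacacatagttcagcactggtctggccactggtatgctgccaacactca
Tnip1 (chr11:54962891-54963190, minus strand): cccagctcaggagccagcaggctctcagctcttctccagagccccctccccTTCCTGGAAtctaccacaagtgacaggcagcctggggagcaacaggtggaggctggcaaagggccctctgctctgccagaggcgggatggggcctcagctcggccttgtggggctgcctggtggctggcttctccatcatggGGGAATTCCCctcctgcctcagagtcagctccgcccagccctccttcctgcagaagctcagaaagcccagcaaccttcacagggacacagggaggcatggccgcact

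Klra1 and Ncr1 each hold the RUNX letters, Ccl9 holds one AP-1 and one ETS match, and Tnip1 holds a STAT match and overlapping NF-kB matches. The windows of Ccl3 and Klrb1a hold none of these letters. Over all 64 windows the RUNX letters were in 7 (10.9%), against 3.97% of the 12131 such windows inside sites at the same level. The ETS letters were in as many, 10.9%, against 15.7%, the STAT letters in 4.69% against 6.43% and the AP-1 letters in 6.25% against 4.56%. The NFAT letters were in 4.69% against 4.29%, those of NF-kB in 3.12% against 2.45% and of the T-box in 1.56% against 0.775%. The whole CRE was in 0 of 64, against 3.42%, and its short form TGACG, part of the whole element, in 7.81% against 33.7%. The GC-rich letters GGGCGG read by SP and KLF factors were in 40.6% against 67.7%. The windows had a median GC content of 54.5% against 62.3%, and a median of 5.5 CpG dinucleotides against 22. A match is a description of letters and shows no bound factor.

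The 972 sites were mostly distal. Of them 404 (41.6%) lay in introns, 372 (38.3%) between genes, 103 (10.6%) in exons and 93 (9.57%) at promoters, by the classes of the deposited table. Among the 31816 sites at the same level, promoters made up 36.7%. The 2277 sites that lay at least 0.5 higher with PGE2 at rest were also mostly distal, with 5.53% at promoters. The median site was 940 bp wide with a count of 117 in untreated resting WT cells, against 1161 bp and 221 for all sites at the level. Its centre was 18025 bp from the nearest RefSeq start, against 8576 bp.

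**Figure D1:**
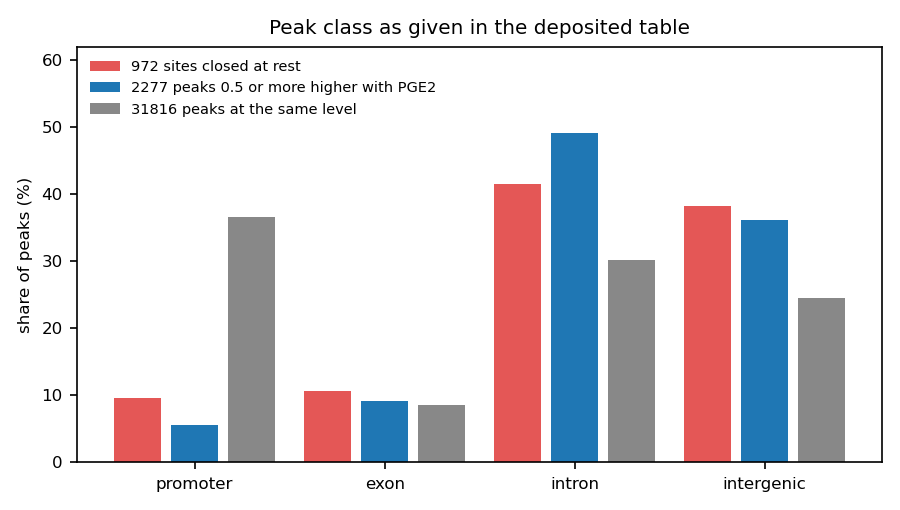
Share of sites (%) in each class of the deposited table, for the 972 sites, for the 2277 sites at least 0.5 higher with PGE2 at rest, and for all 31816 sites at the same level. Promoters make up 9.57%, 5.53% and 36.7% of these.

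At rest the median difference was -0.61 (log2), so most of the sites lay near the threshold: 793 were above -0.75, 152 between -0.75 and -1, and 27 at -1 or lower. Just inside the threshold were sites of Nat10 (166 to 118 in the group means), Gm8817 (318 to 224) and Psma6 (719 to 508), and just outside it sites of Tango6 (76.2 to 54.2), Gimap6 (379 to 268) and Gm4814 (222 to 156). Just inside the level were sites of Cited2 (50.2), Med26 (50.3) and 9030624G23Rik (50.4), and just outside it those of Xpo6 (49.97), Arid2 (49.9) and Bcl11b (49.9). With each library centred on its median, 1464 sites met the same rule, all 972 among them.

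The site that lay lowest, between genes and assigned to Ncald (neurocalcin delta, a calcium sensor, chr15:37805933-37806736), had counts of 53.4, 59.3, 64.8 and 44.2 in untreated resting WT cells and 18.8, 32.0 and 18.6 with PGE2. The 3 PGE2 libraries all lay below the 4 untreated ones, a difference of -1.26. The intron site of Gnas (chr2:174343777-174344835), which encodes the Gs alpha subunit that EP2 and EP4 act through, held 546, 637, 481 and 553 without and 255, 201 and 255 with PGE2. No PGE2 library reached any untreated one, a difference of -1.22, a description only, since these libraries had served to choose the sites. A site near Slc38a1 (a glutamine transporter, chr15:96542989-96543933) held 510.3, 480.1, 427 and 467 without and 226, 164 and 219.8 with PGE2, again with a clear gap. Their KO counts at rest overlapped with and without PGE2: 535 to 574 and 517 to 609 at Gnas, 326 to 421 and 365 to 455 at Slc38a1.

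At these 3 sites counts also fell when untreated KO cells were stimulated through NK1.1. Gnas fell to 227, 208, 122 and 184 in stimulated KO cells (log2 change -1.60 ± 0.16 SE, limma adjusted p = 1.68e-10). In stimulated WT cells it held 214, 267, 175 and 202 without PGE2 and 211, 204, 162 and 224 with it, which overlap. Slc38a1 held 200.4, 206, 188 and 211 without PGE2 and 204, 205, 192 and 222 with it in stimulated WT cells, which also overlap. Resting WT cells with PGE2 were as low at both sites as stimulated cells, a description only, since their libraries had served to choose the sites.

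Of the 12 sites that lay lowest at rest, each from a different gene, 7 were lower when KO cells were stimulated, 2 were higher (Ccl3 and Tnfsf8) and 3 were not called (Wfdc21, Poglut3 and Ccdc162). A site near Wfdc21 (chr11:83728529-83729221) held 57.3, 53.5, 67.7 and 47.8 in resting WT cells and 28.2, 24.7 and 20.4 with PGE2. It held 61.7, 59.6, 58.7 and 52.1 with stimulation and 30.8, 31.2, 32.6 and 34.6 with stimulation and PGE2 (-0.82 ± 0.20 SE, limma adjusted p = 0.00118). The low counts with PGE2 at rest had served to choose the site. With stimulation PGE2 again gave low counts, while stimulation alone left the counts near those at rest. An exon site of Ccdc162 (chr10:41606596-41607188) also fell with PGE2 in stimulated WT cells, but its untreated stimulated WT libraries lay above the untreated resting ones. It held 66.7, 69.0, 73.6 and 62.1 at rest and 36.5, 25.6 and 32.8 with PGE2. With stimulation it held 109, 102, 89.6 and 74.6, and 50.7, 49.1, 28.5 and 46.7 with both (-1.10 ± 0.20, limma adjusted p = 2.89e-05). Sites in an intron of Smurf1, a ubiquitin ligase gene, and near Rap2b, a small GTPase gene, and the Ly49 pseudogene Klra13-ps followed the order of Gnas. Their means were 133 ± 23.5 (SD, n = 4) at rest and 61.9 ± 22.9 (n = 3) with PGE2 at Rap2b, then 60.8 ± 20.6 and 64.0 ± 10.8 (n = 4 each) in stimulated WT cells without and with PGE2. Ptch1, the Hedgehog receptor gene, had an intron site with means of 71.5 ± 6.03 and 33.4 ± 11.2 at rest.

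**Figure D2:**
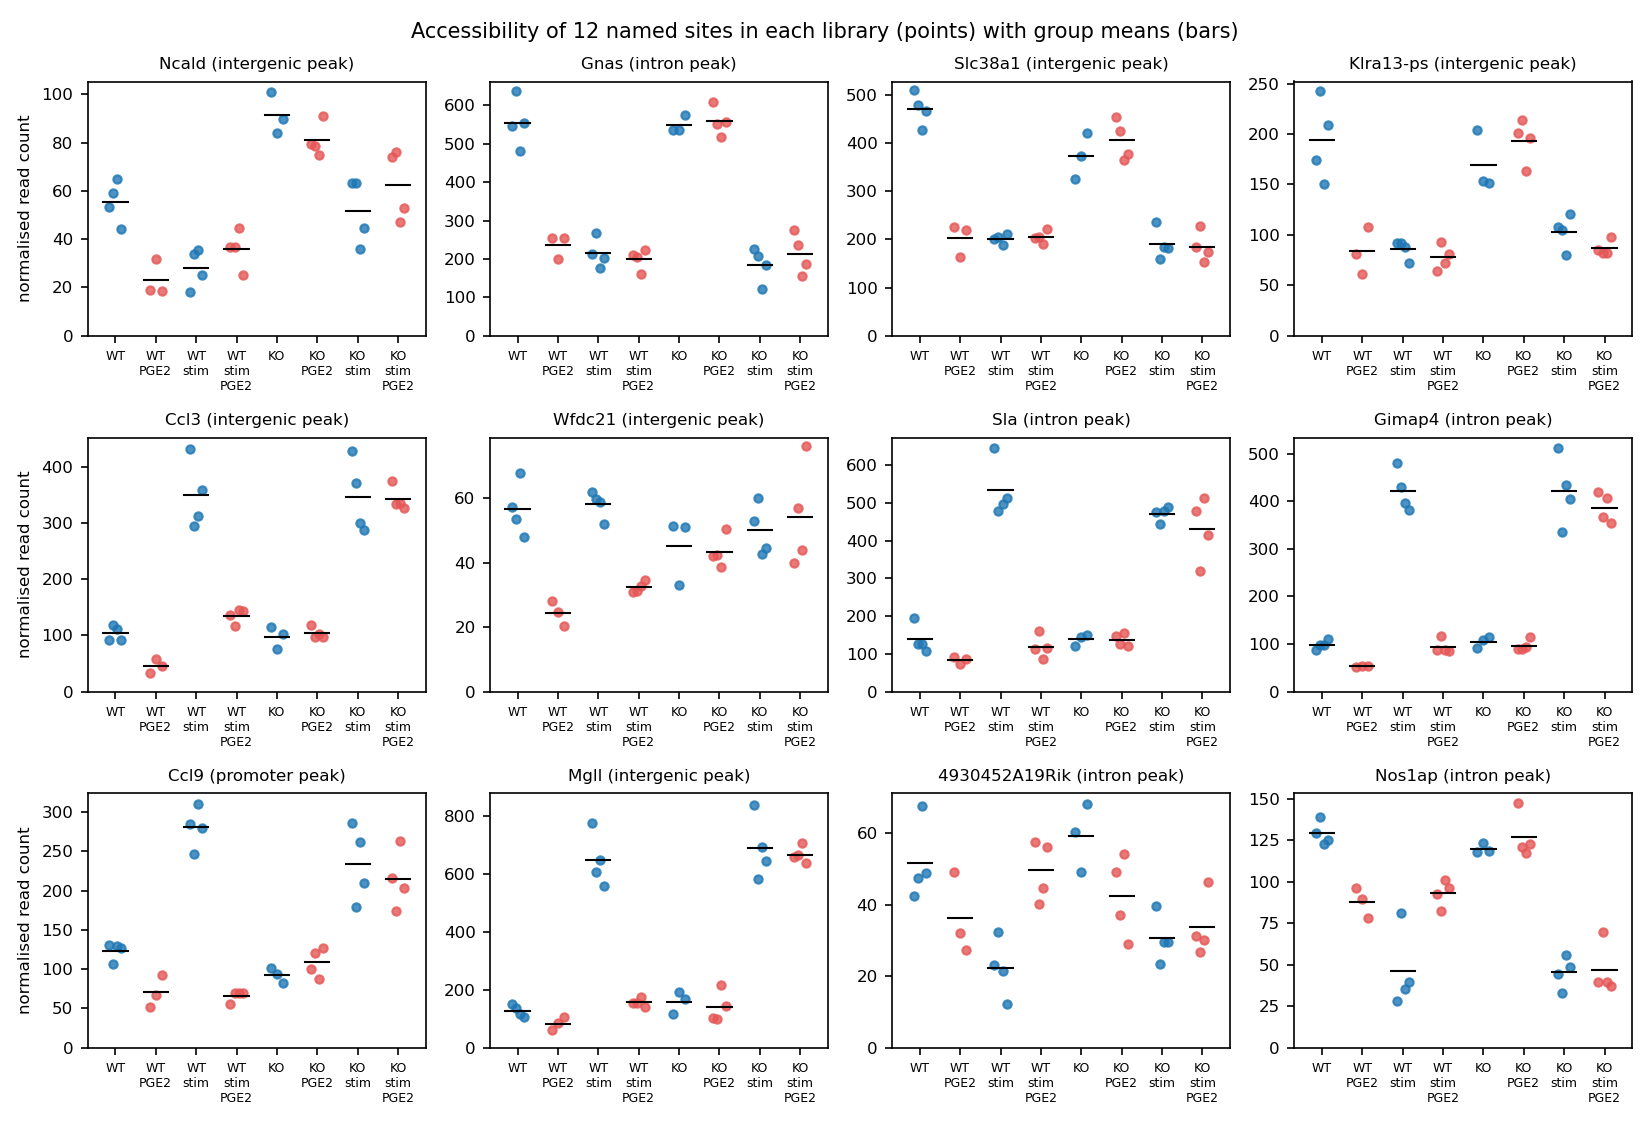
Normalised read count (vertical axis, from 0) of 12 named sites in each library (points, blue without and red with PGE2) of the 8 groups, with group means as bars. At Gnas and Slc38a1 the resting WT libraries with PGE2 sit with the stimulated groups, and at Sla, Gimap4, Ccl9 and Mgll the stimulated WT libraries with PGE2 sit far below those without it.

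In stimulated WT cells, which share no library with the choice of sites, PGE2 lowered 262 of the 972 sites (27.0%) and raised 79 (8.13%). Over all sites tested, 20.4% were called lower and 20.2% higher, and at the same level 17.5% and 21.8%. The median change was -0.10 for the 972 sites and -0.01 for all sites tested. Of the 262, 233 had no overlap between the 4 libraries with and the 4 without PGE2, a share not computed for other sites. By class, 33 of 93 promoter sites, 29 of 103 exon sites, 103 of 404 intron sites and 97 of 372 intergenic sites were lower. In the same order 5, 4, 37 and 33 were higher, and shares by class were not computed for other sites. So 631 of the sites that lay lower at rest were not called in either direction once the cells were stimulated.

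**Figure D3:**
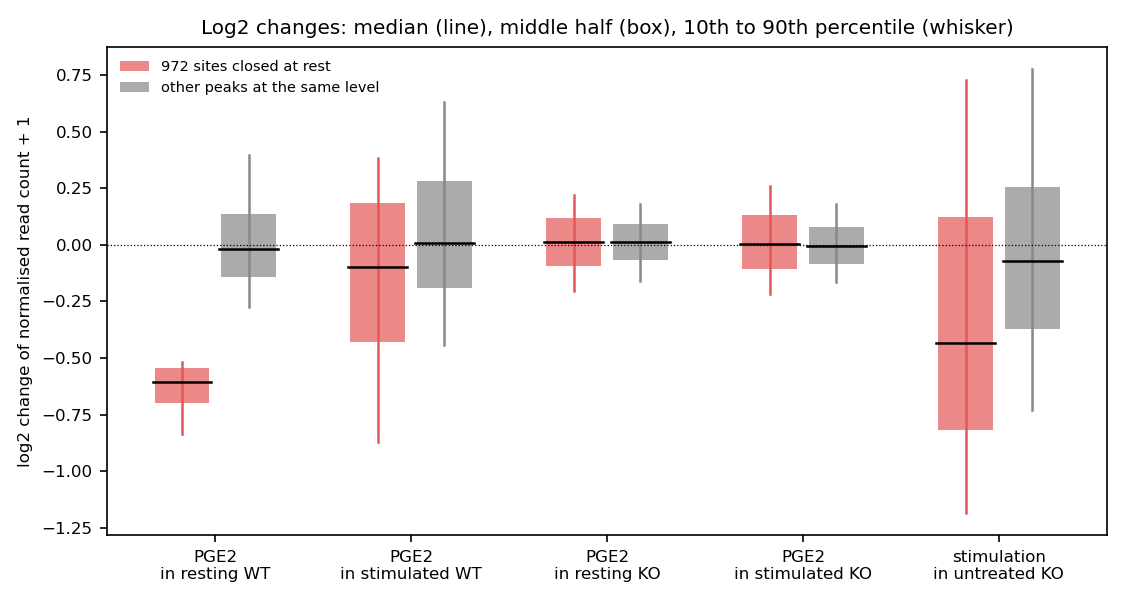
Log2 change of the normalised read count + 1 (vertical axis) in 5 comparisons for the 972 sites (red) and the other sites at the same level (grey), with the median as a line, the middle of the values from the 25th to the 75th percentile as a box and the 10th to 90th percentile as a whisker. The resting WT comparison chose the sites; in stimulated WT cells their median was -0.10, and in both KO comparisons with PGE2 it was 0.01.

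Chemokine genes stood in the lower group. NK cytokine and chemokine genes held 12 of the sites among 132 tested (9.09%), and all 12 fell with PGE2 in stimulated WT cells, with a median of -1.29. Of all 132 sites of these genes, 80 were lower and 17 higher, with a median of -0.67. Stimulation of KO cells raised 11 of the 12. The call at one Ccl9 site (-0.55 ± 0.18, limma adjusted p = 0.0135) was lost without stimulated WT replicate 3 with PGE2 (-0.43, limma adjusted p = 0.0737). They belonged to Ccl3 and Ccl4, Ccl5 and Ccl9, which encode chemokines that attract monocytes, T cells and dendritic cells, and to Tnfsf8, the ligand of CD30. The Ccl3 promoter site (chr11:83646107-83649993), whose window is printed above, had 1227 ± 106 counts (SD, n = 4) in untreated resting WT cells and 557 ± 46.7 (n = 3) with PGE2. Stimulated WT cells held 4173 ± 506 (n = 4) without and 1367 ± 113 (n = 4) with PGE2, a log2 change of -1.61 ± 0.12 (SE, limma adjusted p = 5.83e-13). Stimulated KO cells held 4018 ± 904 and 3706 ± 485.

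A second Ccl3 site, between genes (chr11:83641258-83641649), held 92.6, 119, 112 and 92.0 in resting WT cells and 33.4, 58.5 and 46.1 with PGE2. It held 432, 294, 313 and 359 in stimulated WT cells and 137, 116, 145 and 144 with PGE2 (-1.35 ± 0.15, limma adjusted p = 4.15e-09). All 4 stimulated libraries with PGE2 lay close to the resting untreated ones and far below the stimulated untreated ones. In stimulated KO cells it held 428, 371, 301 and 287 without and 374, 334, 335 and 327 with PGE2, which overlap.

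The exon site of Ccl4 (chr11:83663325-83667399) was the one that stimulation raised most. It held 226, 336, 291 and 343 in resting WT cells and 188, 165 and 189.7 with PGE2. It held 4885, 3711, 3286 and 3186 in stimulated WT cells and 1357, 1289.6, 828 and 888 in stimulated WT cells with PGE2. PGE2 thus lowered it in stimulated cells (-1.80 ± 0.17, limma adjusted p = 6.98e-11), to levels still above every resting library. The promoter site of Ccl9 (chr11:83578203-83579609, window printed above) held 285, 247, 311 and 279 in stimulated WT cells and 55.7, 70.3, 69.3 and 70.1 with PGE2 (-2.07 ± 0.16, limma adjusted p = 6.10e-13), below its 131, 107, 129.6 and 127 at rest.

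Tnfsf8 had an intron site (chr4:63841851-63842895) that held 219, 204, 164 and 186 at rest and 88.7, 81.3 and 94.8 with PGE2. It held 491, 413, 409 and 445 with stimulation and 134, 148, 106 and 129.9 with both (-1.76 ± 0.13, limma adjusted p = 1.44e-13). With stimulation, the libraries with and without PGE2 were separated by a gap wider than the spread within either group. Its KO levels with stimulation were 396 to 562 without and 378 to 436 with PGE2. Tnfrsf8, which encodes CD30 itself, had an intron site (chr4:145305636-145307252) at 301, 328, 279 and 309 with stimulation and 60.6, 62.5, 71.3 and 115 with PGE2 added (-2.01 ± 0.18, limma adjusted p = 2.23e-11).

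The chemokine sites lie together. Each stretch named here and below runs from its first to its last site of the 972, which raises their share within it. From chr11:83641258-83667399, all 6 sites tested, of Ccl3 and Ccl4, were among the 972, and all 6 were lower with PGE2 in stimulated WT cells. Ccl3 had further sites outside this stretch: 3 of its 5 sites tested, and 3 of 3 of Ccl4, were among the 972. From chr11:83523878-83579609, with Ccl5 and Ccl9, 6 of 13 sites were among them and all 6 were lower. Of all 13 sites tested there, 9 were lower. Reads from chemokine genes of similar sequence may be shared between them, so the assignment within the family is uncertain.

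Beside Ccl9 and Tnfrsf8, the largest drops with PGE2 in stimulated WT cells were at Sla, Gimap4 and Mgll. An intron site of Sla (chr15:66799546-66800412), which encodes an adaptor that dampens antigen receptor signalling, held 645, 478, 498 and 513 with stimulation and 114, 159.5, 87.6 and 116 with PGE2 added (-2.17 ± 0.16, limma adjusted p = 1.27e-13). The last values overlap its 196, 126, 126 and 109 in resting untreated cells. Within Gimap4, which encodes a GTPase of lymphocytes, an intron site (chr6:48689177-48689752) held 479.7, 429.6, 397 and 382 with stimulation and 87.5, 116, 87.6 and 86.0 with PGE2 added (-2.16 ± 0.12, limma adjusted p = 8.40e-16). A site near Mgll (chr6:88717682-88718928), which encodes a lipase for monoacylglycerols, held 777, 607, 647 and 559 without and 153, 156, 176 and 142 with PGE2 (-2.03 ± 0.18, limma adjusted p = 1.24e-11). In each of the 3, stimulated KO libraries with and without PGE2 overlapped, for example 335 to 511 and 355 to 418 at Gimap4. Intron sites of Fchsd2 and of Inpp4a, a lipid phosphatase gene, also fell, with log2 changes of -1.80 and -1.79.

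Of the 972 sites, none was called with PGE2 in KO cells, at rest or with stimulation, by limma or by edgeR. Over all sites tested limma called 0.0% in resting and 0.0026% in stimulated KO cells, the latter a single site that rose (0.00314% of those at the level). At an unadjusted p under 0.05, limma had 32 of the 972 at rest and 46 with stimulation, and edgeR 28 and 44. The medians were 0.01 and 0.01, and the largest changes in size were 0.61 and 0.87. Averaged over all 972 sites and set against untreated resting WT cells, resting KO libraries lay at -0.06 ± 0.07 (SD, n = 3) without and -0.05 ± 0.03 (n = 4) with PGE2.

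The PGE2 effect in stimulated cells itself was tested between genotypes. It was more negative in WT than in KO at 174 of the 972 sites (17.9%, against 9.8% of all sites tested and 8.23% at the level) and more positive at 17 (1.75%, against 10.2% and 11.2%). The second count was 28 without untreated stimulated KO replicate 3 and 27 without stimulated KO replicate 2 with PGE2. The size of this difference was -2.02 ± 0.22 at Sla, -2.05 ± 0.18 at Gimap4, -1.95 ± 0.22 at the Ccl9 promoter and -1.84 ± 0.24 at Ccl4 (log2, SE, all called by limma).

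Stimulation through NK1.1 alone was read in untreated KO cells, since the untreated resting WT libraries had served to choose the sites. It lowered 473 of the 972 (48.7%, against 26.4% of all sites tested and 30.3% at the level) and raised 157 (16.2%, against 28.1% and 22.5%). Centring each library on its median shifted all sites by -0.15 (log2) in this comparison, and then 556 were lower and 129 higher. The 3 classes of sites, raised, lowered and not called, were then read for PGE2 in stimulated WT cells, a comparison that shares no library with the classes.

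Of the 157 sites that stimulation raised, 145 (92.4%) were lower with PGE2 in stimulated WT cells and 0 higher. Of the 145, 140 had no overlap between libraries, a share not computed for other sites. The median change of the 157 sites was -0.92. Other sites at the same level that stimulation raised were lower in 55.2% and had a median of -0.31. The library means of the 157 sites were 0.90 ± 0.06 (log2 relative to untreated resting WT, SD, n = 4) in stimulated WT cells and -0.09 ± 0.03 (n = 4) with PGE2 as well. The latter mean lay near the level of untreated resting WT cells, a description only, since those libraries had served to choose the sites. In the KO, whose untreated libraries defined the class, the means were 0.96 ± 0.06 with stimulation and 0.87 ± 0.04 with PGE2 added.

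Of the 473 sites that stimulation lowered, 22 were lower with PGE2 in stimulated WT cells and 74 (15.6%) higher, with a median of 0.15. Other sites at the level that stimulation lowered were higher in 49.0%, with a median of 0.30. The library means of the 473 sites were -0.94 ± 0.10 in stimulated WT cells and -0.80 ± 0.02 with PGE2. With PGE2 alone at rest the mean was -0.66 ± 0.08 (n = 3). This mean and the untreated resting level are a description only, since those libraries had served to choose the sites. The 342 sites not called for stimulation had 95 lower and 5 higher, with a median of -0.22, against 9.64% and 12.3% of other such sites, whose median was -0.04.

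**Figure D4:**
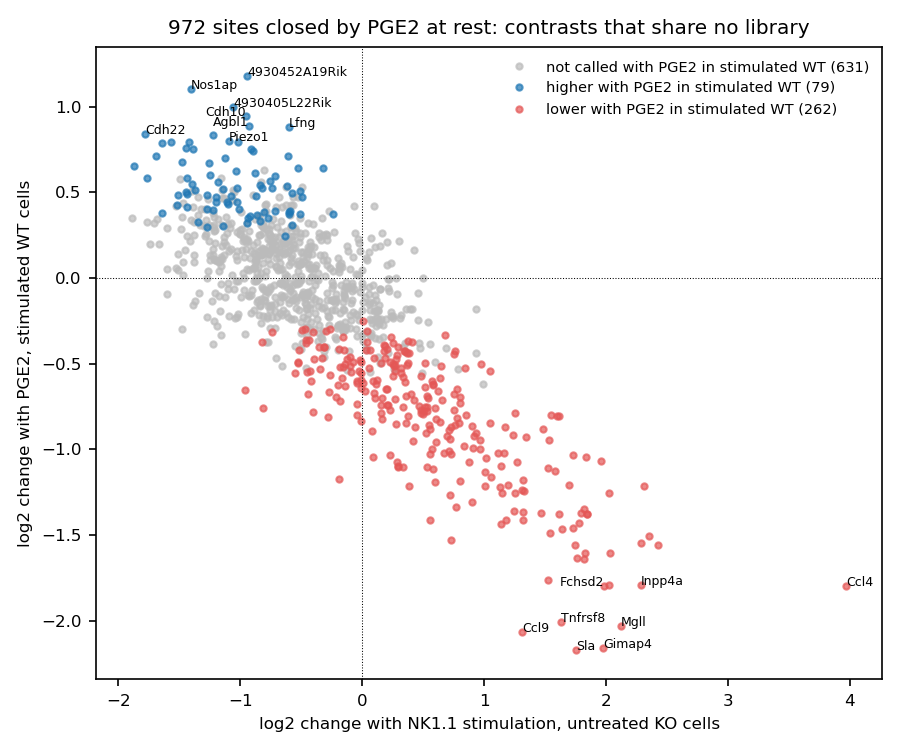
Each point is one of the 972 sites, with the log2 change on NK1.1 stimulation in untreated KO cells on the horizontal axis and the log2 change with PGE2 in stimulated WT cells on the vertical axis, which share no library. Colours give the limma call on the vertical axis, with 262 lower, 79 higher and 631 not called; the lower sites lie mostly to the right and the higher ones to the left.

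**Figure D5:**
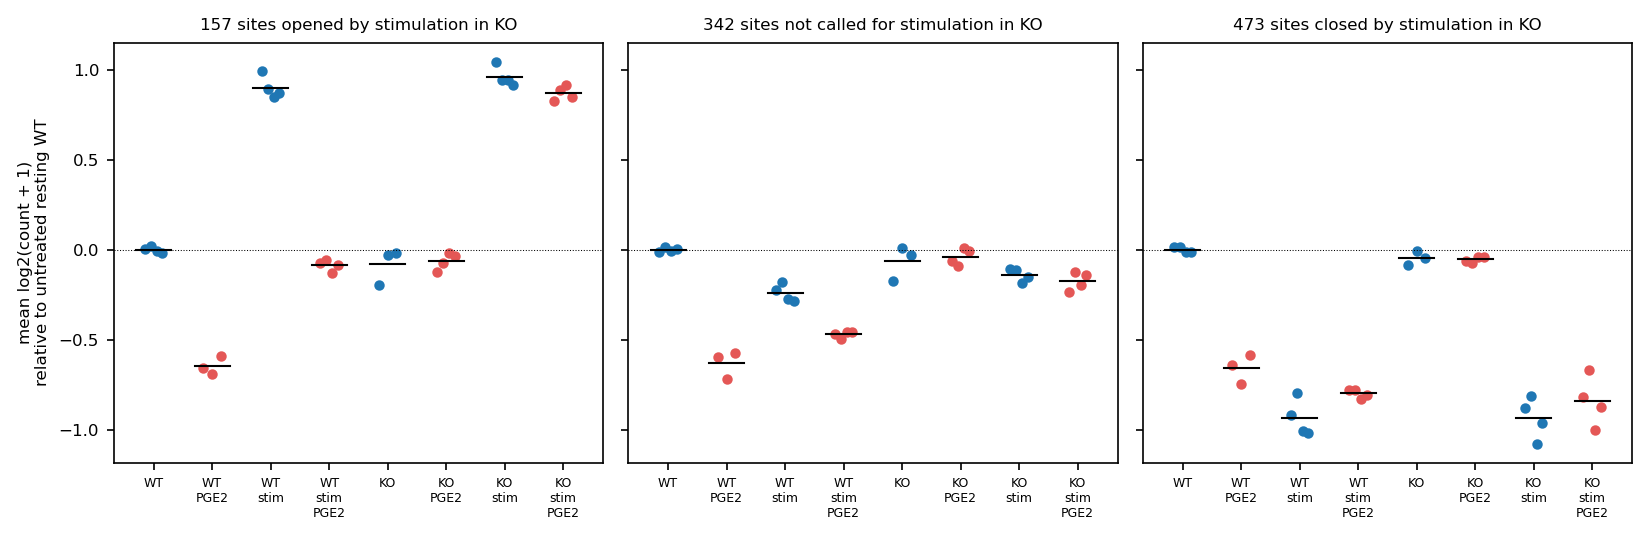
Mean log2(count + 1) of the sites in each library (points) relative to untreated resting WT cells, by group and by their response to stimulation in untreated KO cells, with group means as bars. Among the 157 sites opened by stimulation, WT libraries average 0.90 with stimulation and -0.09 with stimulation and PGE2.

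The sites that PGE2 raised in stimulated WT cells, against their direction at rest, were mostly among those that stimulation lowered, with 74 of the 79. Of the 972 sites 473 were in that class. Of all sites tested that PGE2 raised there, 4735 of 7767 were among those that stimulation lowered, so most were in that class too. An intron site of Nos1ap, an adaptor of neuronal nitric oxide synthase (chr1:170351256-170352083), held 129.5, 139, 123 and 125 at rest and 96.0, 89.6 and 78.0 with PGE2. It held 28.3, 81.3, 35.7 and 39.9 with stimulation and 92.5, 82.5, 101 and 96.3 with both (log2 change 1.1, limma adjusted p = 5.68e-05). In both states the PGE2 libraries lay below the untreated resting ones, and above the untreated stimulated ones except for the one at 81.3. The resting libraries had served to choose the site. A site near Cdh22 (a cadherin, chr2:165250646-165251459) held 152, 146, 165 and 150.5 at rest and 101, 91.4 and 105 with PGE2. It held 48.6, 62.3, 53.1 and 50.3 with stimulation and 102, 95.9, 92.7 and 94.4 with both (0.84 ± 0.14, limma adjusted p = 6.78e-06). Its resting and stimulated libraries with PGE2 overlap. An intron site of 4930452A19Rik (chr17:9773682-9774209) rose by 1.18 ± 0.26 (limma adjusted p = 0.000338). Intron sites of Cdh10, another cadherin, and of Piezo1, a mechanically gated channel, rose by 0.95 and 0.80. The call at Lfng, a modifier of Notch receptors (0.88 ± 0.27, limma adjusted p = 0.00916), was lost without untreated stimulated WT replicate 1 (0.70, limma adjusted p = 0.0522).

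NK receptor genes held 28 of the sites among 182 tested (15.4%), the largest number of the 21 gene lists, some of which share genes. With PGE2 in stimulated WT cells 5 of the 28 were lower and 3 higher, with a median of -0.15. Of all 182 sites of these genes, 37 were lower and 41 higher, with a median of 0.02. Stimulation of KO cells lowered 17 and raised 4, or 18 and 3 with each library centred on its median. Many belong to the Ly49 family (Klra genes), lectin-like receptors of which most bind MHC class I and inhibit the cell. Those genes are close copies of each other, so reads and assignments between them are uncertain. By gene name, 86 of the 972 sites were marked for this. That mark also took in every predicted gene named Gm with a number, which need not have close copies.

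The Ly49 sites lie in 2 stretches of chromosome 6. From chr6:130031409-130170445, 11 of 17 sites tested were among the 972, and stimulation of KO cells lowered 9 of the 11. From chr6:130236646-130420044, 8 of 12 were among them, and stimulation lowered all 8. It lowered 48.7% of the 972, 26.4% of all sites tested and 30.3% at the level. Calls on stimulation at the other sites of the 2 stretches were not counted. A site near Klra7 (chr6:130236646-130238613) held 601, 605, 477 and 605 in untreated resting WT cells and 274, 246 and 342 with PGE2. It held 359, 419, 374 and 389.6 with stimulation and 342, 312, 272 and 274 with both (-0.36 ± 0.09, limma adjusted p = 0.00203). Untreated stimulated cells lay between the untreated and the PGE2-treated resting cells. A site near Klra10 (chr6:130286195-130288752) held 464, 609, 525 and 577 at rest and 279, 257 and 286 with PGE2. It held 249, 259, 204 and 246 with stimulation and 201, 234, 167 and 239 with both. Here the stimulated libraries with and without PGE2 overlap, near or below the level of resting cells with PGE2. The Klra1 promoter site, printed above, had means of 389 ± 62.2 (SD, n = 4) and 203 ± 29.1 (n = 3) at rest.

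Other receptor genes had sites too. The promoter site of Ncr1, which encodes the activating receptor NKp46, averaged 1900.3 ± 119 (n = 4) without and 1281 ± 125 (n = 3) with PGE2 at rest, and 1241 ± 47.3 and 1087 ± 103 (n = 4 each) with stimulation. Klrd1 and Klrk1, which encode CD94 and NKG2D, shared a stretch with Klrc3 in which 6 of 13 sites were among the 972. The Klrb1a promoter site fell with PGE2 in stimulated WT cells (-0.44 ± 0.13, limma adjusted p = 0.00746). Klri2 had 4 sites, and Slamf7, a receptor that activates NK cells, had 2.

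Proximal signalling genes held 8 of 284 sites (2.82%), near the 2.52% of all sites tested, with 3 lower and 0 higher in stimulated WT cells. Of all 284 sites of these genes, 58 were lower and 73 higher, with a median of 0.05. Ptpn6 encodes SHP-1, the phosphatase recruited by inhibitory receptors, and its intron site (chr6:124729587-124730660) held 452, 395, 359 and 303 at rest and 190.0, 189 and 196 with PGE2. It held 763, 648, 574 and 573 with stimulation and 341, 325, 356 and 319 with both (-0.92 ± 0.11, limma adjusted p = 2.21e-08). No stimulated library with PGE2 reached those without it. The other lower sites were a second one of Ptpn6 and one of Cbl, a ubiquitin ligase. Sites of Fyn, a kinase, and Plcg2, a phospholipase, were not called.

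NK transcription factor genes held 12 of 495 sites (2.42%), of which 6 were lower and 0 higher in stimulated WT cells. Of all 495 sites of these genes, 109 were lower and 137 higher, with a median of 0.06. Ikzf3, which encodes Aiolos, had 4, of which 3 were lower. The stretch around it (chr11:98457149-98582165) held 6 of 13 sites with 5 lower, and of all 13 sites tested there 6 were lower. The Ikzf3 intron site at chr11:98541060-98541591 held 51.0, 74.8, 48.1 and 53.7 at rest and 20.9, 34.7 and 42.5 with PGE2. It held 209, 213, 206 and 189 with stimulation and 129, 93.7, 89.7 and 88.8 with both (-1.04 ± 0.18, limma adjusted p = 1.35e-05), the latter still above every resting WT library. A site near Tbx21, which encodes the NK regulator T-bet (chr11:97118113-97118860), held 331, 243, 212 and 247 at rest and 204, 154 and 141 with PGE2. With stimulation it held 632, 598, 526 and 537 without and 296, 252, 272 and 241 with PGE2 (-1.11 ± 0.12, limma adjusted p = 1.92e-09). The other lower sites belonged to Id2, a repressor of alternative fates, and Ikzf1, which encodes Ikaros.

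Genes of the cyclic AMP pathway held 9 of 274 sites (3.28%), with 2 lower and 1 higher in stimulated WT cells. Of all 274 sites of these genes, 44 were lower and 77 higher, with a median of 0.08. Both lower ones were in introns of Sik3, which encodes a salt-inducible kinase that protein kinase A restrains. The first (chr9:46158447-46159493) held 141, 131, 129 and 130.2 at rest and 64.7, 70.4 and 66.5 with PGE2. It held 242, 209, 247 and 297 with stimulation and 96.4, 133, 119 and 121 with both (-1.08 ± 0.15, limma adjusted p = 1.80e-07). The higher one belonged to Prkacb, a catalytic subunit of protein kinase A. The others were of Gnas, described above, Csk, Grk5, Pde4a, Sik2 and another of Sik3, and were not called.

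Cytotoxic granule genes held 4 of 85 sites, with 1 lower (2 with median centring or with edgeR) and 0 higher in stimulated WT cells. Of all 85 sites of these genes, 34 were lower and 19 higher, with a median of -0.18. A site near Gzmb, which encodes granzyme B (chr14:56293113-56293692), held 138, 121, 144 and 135 at rest and 66.8, 69.5 and 82.4 with PGE2. It held 163, 118, 148 and 133 with stimulation and 86.5, 78.1, 75.4 and 81.3 with both (-0.79 ± 0.15, limma adjusted p = 4.19e-05). No stimulated library with PGE2 reached one without it. Since the KO mice carry a Cre driven by the granzyme B promoter, values near this gene in the KO are not described. Migration genes held 4 of 192, among them 2 of S1pr5, a receptor for egress from tissue, both lower. Of all 192 sites of these genes, 36 were lower and 76 higher, with a median of 0.26. The call of the intron site (-0.52 ± 0.18, limma adjusted p = 0.0164) was lost without untreated stimulated WT replicate 2 (-0.40, limma adjusted p = 0.086) and without replicate 1 with PGE2 (-0.46, limma adjusted p = 0.0554). Genes of small GTPases and actin held 6 of 223, with 3 lower at Coro2a, Dock2 and Arhgef3. Of all 223 sites of these genes, 50 were lower and 59 higher, with a median of 0.01. The call at Arhgef3 (-0.50 ± 0.17, limma adjusted p = 0.0213) was lost in 3 settings that left out 1 library, with limma adjusted p = 0.0538 without untreated stimulated WT replicate 2, 0.0523 without replicate 4 and 0.093 without replicate 2 with PGE2.

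The list of genes of receptor activation (NFAT, NF-kB, AP-1, EGR and NR4A) held 0 of 239 sites, and interferon-stimulated genes 0 of 36. The list of prostanoid genes (receptors, enzymes and transporters) and of further receptors held 2 of 57. TGF-beta and residency genes held 2 of 131, cytokine receptor and STAT5 genes 2 of 150, glycolysis and mTOR genes 2 of 82, and housekeeping genes 1 of 48. Of the marker lists, NK cells held 9 of 73, innate lymphoid cells 2 of 48, B cells 1 of 12, T cells 1 of 21, erythroid cells 1 of 4 and myeloid cells 0 of 16.

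Of the 972 sites, 259 (26.6%) lay within 50 kb of another of them, in 100 stretches; how many of other sites do so was not computed. Besides those above, 5 of 13 sites of the Gimap genes (chr6:48646869-48713287) were among them, all lower with PGE2 in stimulated WT cells. So were 4 of 8 near Sulf2 (chr2:166108249-166221215), all lower too. Of all sites tested in these stretches, 9 of the 13 and 6 of the 8 were lower. Most genes had 1 site: 710 of 821 had 1, 83 had 2 and 28 had 3 or more. Cited2, which encodes a regulator that binds the coactivators CBP and p300, had 5 of 12, with 1 lower and 1 higher in stimulated WT cells. Tle4, a corepressor gene, had 5 of 18, with 2 lower. A gene could have sites in both directions: 145 of the 821 (17.7%) also had a site that lay 0.5 or more higher with PGE2 at rest.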

How the data were processed

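ATAC-seq was measured in 30 libraries of cultured mouse splenic NK cells. Reads were handled with Trimmomatic 0.39, Bowtie2 2.4.1, MACS2 2.2.7.1 and DESeq2 on mm10, per the submitters' processing notes, which give no order. The deposited signal values are read counts per peak divided by DESeq2 size factors, by the authors, in 1 table with their gene and class for each peak. Whole reads were recovered from 100% of the values, within 0.05 of a whole number. No pair of libraries held the same reads.

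The members and gene lists were chosen with earlier results of these data known. Log2(value + 1) of 38525 of 38526 peaks with a mean of at least 10 was fitted with limma 3.58.1 (R 4.3.3; 8 group means over all 30 libraries, trend, two-sided, Benjamini-Hochberg adjusted p under 0.05 within each comparison). A log2 change is on the log2(value + 1) scale. Same-numbered libraries deviated together, with correlations of 0.118 to 0.206 in stimulated WT, 0.116 to 0.328 in resting KO and 0.221 to 0.526 in stimulated KO cells, each above 0.1, so the numbers were taken to pair the libraries in those 3 comparisons. They were not for KO stimulation, where 1 of 3 pairs was at 0.006, or across genotypes, where correlations went down to 0.063. The errors, p-values and calls given in the results come from the fit without this pairing. The number entered the fit only as the replicate block, an alternative. No label says what a number marks.

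Alternatives were edgeR 4.0.16 quasi-likelihood with TMM on the recovered reads, median centring, another pseudocount, filter and thresholds of the rule, the replicate block, the compared groups alone and each library left out. Named, with 1 peak per gene, were the 12 lowest at rest, the 8 most lowered and 8 most raised with PGE2 in stimulated WT cells without overlap, up to 3 per list by the difference at rest, the neighbours of each threshold and up to 3 genes with most peaks. Promoter peaks whose sequence is printed, and further peaks of listed genes, were named after their values were seen. Assignment is uncertain in families of similar genes (Klr, Gzm, Ccl and Gimap among them). Promoter windows run from 250 bases before to 50 after a RefSeq start. Some single genes are not reported here.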

Additional observations from a re-analysis of the deposited data

Results flagged for a closer look

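The PGE2 effect in stimulated cells differed between WT and KO at 174 of the 972 sites in the negative and at 17 in the positive direction, by a limma test of the difference. Of 28 named sites, 19 are listed here. Of the 28, 16 had been named for their change in the stimulated WT libraries that enter this test, so that count is a description. The difference (WT minus KO, log2) was -1.35 at the intergenic Ccl3 site, -1.84 at the Ccl4 exon, -1.95 at the Ccl9 promoter, -1.59 at Tnfsf8 and -1.96 at Tnfrsf8. It was -2.02 at Sla, -2.05 at Gimap4, -2.0 at Mgll, -1.77 at Fchsd2 and -1.65 at Inpp4a. It was -0.91 at Wfdc21, -1.02 at Ptch1 and -0.98 at Ccdc162. In the other direction it was 1.05 at 4930452A19Rik, 1.09 at Nos1ap, 0.86 at 4930405L22Rik, 0.86 at Cdh10, 0.91 at Agbl1 and 0.64 at Cdh22.

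In groups of 4, 192 tests were made, at the named sites and on the library means by class, and chance flags about 1 in 20. Single libraries stood apart from the rest of their group in 10, all at named sites. In stimulated KO cells with PGE2 these were replicate 1 at Ccl3 (374 normalised counts) and replicate 2 at Nos1ap (69.7), and in resting KO cells with PGE2 replicate 1 at Nos1ap (147). In untreated stimulated KO cells they were replicate 4 at Ccdc162 (138) and Cdh22 (43.9) and replicate 2 at Fchsd2 (419). In stimulated WT cells with PGE2 they were replicate 2 at Gimap4 (116) and replicate 1 at Ccl9 (55.7) and Cdh10 (115), and in untreated stimulated WT cells replicate 4 at Cdh10 (72.9).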

How the results depend on the processing

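A threshold of -0.75 left 179 sites, of which 69 were lower and 7 higher with PGE2 in stimulated WT cells, 50 and 1 differed between genotypes, 94 and 33 were lower and higher on KO stimulation, and all 33 of the latter were lower with PGE2. A level of 100 left 547 sites, with 171 lower in stimulated WT cells, 96 higher on KO stimulation and 92 of those lower with PGE2. Those drops follow from fewer sites. Median centring took 1464 sites, all 972 among them. Leaving out 1 library took 905 to 1286, which held from 70.1% (without resting WT replicate 3 with PGE2) to 88.6% of the 972, and 67.0% to 80.2% of each such set were among the 972. Without 1 library, 13 to 28 sites had a more positive PGE2 effect in WT. The replicate block gave 278 lower and 90 higher in stimulated WT cells, 195 and 24 between genotypes and 485 and 163 on KO stimulation, and moved no count by over 1.5 times. For single sites, 733 of 760 alternatives kept direction and side of the threshold and 19 lost the call. The other 8 turned the direction of uncalled changes: Smurf1 to -0.051 with edgeR, and without 1 library Smurf1 (-0.39 to 0.32), Rap2b (-0.018 to 0.32), Gnas (-0.18 to 0.019) and Slc38a1 (-0.0069 to 0.065). The cause was not tested. Among the lost calls were those of Lfng, Rptor, Poglut3, Arhgef3, S1pr5 and the intergenic Ccl9 site, each lost when 1 library was left out. Depth limits sites near a count of 50, where a single library's change has a wide spread.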
